A study of Mus musculus with 2 samples.

Results

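The Mir297, Mir466, Mir467 and Mir669 genes are rodent microRNA genes made of UG- and CA-rich repeats, and most of them sit as a tandem array inside the gene Sfmbt2. The members were chosen by name: every counted gene whose GENCODE symbol is one of these 4 stems alone or followed by a letter or a copy number. This gave 69 of the 1973 counted genes. Of these, 59 lie inside Sfmbt2 on chromosome 2 and 10 lie on other chromosomes. Small RNA of under 30 nucleotides was sequenced, per the labels, from livers of B6NCrl mice taken on day 11.5 of embryonic life. The 2 libraries are biological replicates of 1 group, each made from livers pooled over embryos of both sexes, with 109 embryos in replicate 1 and a number the labels do not state in replicate 2. No treatment, genotype or time point is contrasted, so the members are described and the libraries are compared with each other.

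A microRNA is cut from a hairpin precursor and guides the silencing complex to messenger RNAs that pair with its seed, bases 2 to 8 from its 5′ end. Sfmbt2 encodes a Polycomb-group protein. In the mouse it is imprinted and expressed from the paternal allele early in development and in extraembryonic tissue, and its intronic microRNA cluster is known for its role in the placenta. The hairpins of the cluster arose by repeated duplication, so many mature sequences occur in several copies, and a read that matches several places was not counted for any gene.

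Mature sequences of members outside the array show the repeat character of these families. RefSeq (GRCm38.p6) gave a mature sequence for 8 of the 69 members, all 8 outside Sfmbt2, and these are printed 5′ to 3′ with the seed in capitals.
miR-466k: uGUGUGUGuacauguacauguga
miR-466j: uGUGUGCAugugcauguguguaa
miR-669n: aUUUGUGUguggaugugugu
miR-467h: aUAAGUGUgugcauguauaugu
miR-466q: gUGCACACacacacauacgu
miR-466i-3p: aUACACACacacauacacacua
miR-467f: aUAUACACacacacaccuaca
miR-467g: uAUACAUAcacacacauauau
The first 4 are rich in U and G, from 68.2% of bases in miR-467h to 90.0% in miR-669n. The last 4 are rich in A and C, from 70.0% in miR-466q to 86.4% in miR-466i-3p. The 8 seeds were all different, so no 2 of these sequences share a seed. In the GENCODE hairpins, an uninterrupted alternation of U with G or of C with A over at least 8 bases occurred in 56 of the 69 members (81.2%). It occurred in 228 of the 1894 counted genes with a hairpin sequence (12.04%). All 17 Mir467 hairpins and 24 of 25 Mir466 hairpins held such a run, while 0 of 6 Mir297 hairpins did.

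The members held under 1% of the counted microRNA, and nearly all of it came from 9 genes. Counts on the strand of the gene are given as such or per 1000000 assigned counts of the library (CPM). The libraries had 3344673 assigned counts in replicate 1 and 1584499 in replicate 2. The members together had 28511 counts in replicate 1, which is 0.852% of the assigned counts (95% exact Clopper-Pearson binomial interval 0.843 to 0.862). They had 14796 counts in replicate 2, which is 0.934% (0.919 to 0.949). The mean was 0.893 ± 0.0575% (SD, n = 2). The intervals do not overlap, but they cover counting error only. The sources describe no molecular identifiers, so repeated reads of the same molecule cannot be told apart. On the opposite strand the members had 0 counts in both libraries.

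Few members were detected and most had 0 counts, at shares near those of all counted genes. With at least 10 counts in both libraries taken as detected, 9 of 69 members (13.0%) were detected, beside 347 of all 1973 counted genes (17.6%). A count of 0 in both libraries was found for 44 members (63.8%) and for 1249 of all counted genes (63.3%). By depth alone, a count of 0 allows up to 3 counts, or 0.897 CPM and 1.89 CPM in replicates 1 and 2. This limit leaves out reads that match several places, which were not counted at any level. The remaining 16 members had 92 and 32 counts in all in replicates 1 and 2, the highest being 17. The 9 detected members held 99.7% of the member counts in replicate 1 and 99.8% in replicate 2.

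The Mir467 genes led. Mir467d (ENSMUSG00000077021.2, chromosome 2 at 10507630 to 10507714 of mm10) had 8028 counts in replicate 1 and 4657 in replicate 2, or 2400 and 2939 CPM. Its mean was 2670 ± 381 CPM (SD, n = 2), rank 71 among all counted genes. Mir467c (ENSMUSG00000077049.2, 10473931 to 10474027) had 6593 and 3879 counts, or 1971 and 2448 CPM, with a mean of 2210 ± 337 CPM. Mir467d was higher than Mir467c within each library, and their exact Clopper-Pearson intervals did not overlap in either. In replicate 1 these ran from 2348 to 2453 CPM for Mir467d and from 1924 to 2019 CPM for Mir467c. In replicate 2 they ran from 2855 to 3025 CPM and from 2372 to 2526 CPM. The intervals cover counting error only. The counts leave out reads that match several places, and how many each gene lost cannot be told. Of 20-base stretches in the hairpin, 37.9% for Mir467d and 60.3% for Mir467c were found in no other GENCODE M21 microRNA hairpin. Across libraries the values of these genes overlapped, since Mir467c in replicate 2 lay above Mir467d in replicate 1.

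Mir467e (ENSMUSG00000076948.2, 10505721 to 10505807) had 5740 and 2968 counts, or 1716 and 1873 CPM, with a mean of 1795 ± 111 CPM (SD, n = 2). Both of its values lay below both values of Mir467c. The hairpins of these 3 genes are alike: Mir467d and Mir467e are identical at 92.0% of aligned positions, Mir467c and Mir467e at 83.7%, and Mir467c and Mir467d at 83.5%. Together the 3 genes held 71.4% of the member counts in replicate 1 and 77.8% in replicate 2.

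The other 14 Mir467 genes contributed almost nothing to the counts. The 11 Mir467a and Mir467b copies, which lie between Mir467c and Mir467e, had 6 counts in replicate 1 and 2 in replicate 2, and 9 of them had 0 in both. For 10 of the 11, every 20-base stretch of the hairpin also occurs in another GENCODE M21 microRNA hairpin. Reads that match several places were not counted, so the level of these copies is unknown. Mir467f, Mir467g and Mir467h, on chromosomes 11, 5 and 9, had 0 in both libraries.

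Mir669 genes came next, at lower levels. Mir669o (ENSMUSG00000077086.1, chromosome 2 at 10514300 to 10514395) had 3534 and 1250 counts in replicates 1 and 2, or 1057 and 789 CPM, with a mean of 923 ± 189 CPM (SD, n = 2). Mir669l (ENSMUSG00000076959.1, 10468971 to 10469068) had 2845 and 1369 counts, or 851 and 864 CPM, with a mean of 857 ± 9.47 CPM. The order of these genes turned between the libraries: Mir669o was higher in replicate 1 and Mir669l in replicate 2. Their hairpins are identical at 81.8% of aligned positions, although they lie near opposite ends of the array.

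Mir669c (ENSMUSG00000076118.1, 10509296 to 10509404) had 1134 and 343 counts, or 339 and 216 CPM, with a mean of 278 ± 86.7 CPM (SD, n = 2). Mir669e (ENSMUSG00000080653.1, 10467495 to 10467613) had 304 and 159 counts, or 90.9 and 100.3 CPM, with a mean of 95.6 ± 6.69 CPM. Mir669h (ENSMUSG00000080594.1, 10518155 to 10518279) had 62 and 21 counts, or 18.5 and 13.3 CPM, with a mean of 15.9 ± 3.74 CPM. The values of Mir669c lay below those of Mir669l and above those of Mir669e in both libraries, and Mir669h was the lowest detected member in both. In all, 5 of 21 Mir669 genes were detected and 13 had 0 counts in both libraries.

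Mir466 and Mir297 genes had few counts. Mir466n (ENSMUSG00000077991.1, chromosome 2 at 10513741 to 10513834), the only one of 25 Mir466 genes that was detected, had 179 counts in replicate 1 and 118 in replicate 2. This is 53.5 and 74.5 CPM, with a mean of 64.0 ± 14.8 CPM (SD, n = 2). It lies below Mir669e in both libraries. Next in the Mir466 group was Mir466h with 17 and 5 counts, followed by Mir466b-3 with 13 and 2. Of the 6 Mir297 genes, 4 had 0 counts in both libraries. Mir297a-2 had 2 and 8 counts and Mir297b 3 and 2 counts in replicates 1 and 2.

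**Figure D1:**
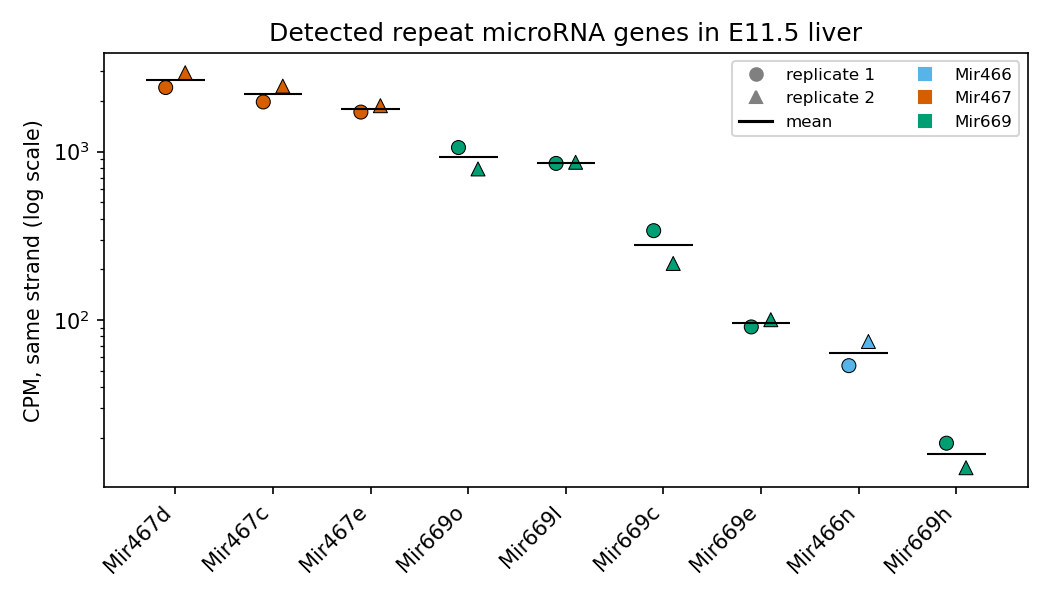
CPM on the strand of the gene (log axis) for the 9 detected members, ordered by mean, with circles for replicate 1, triangles for replicate 2 and a bar at the mean. The 3 Mir467 genes sit between 1716 and 2939 CPM, above all values of the Mir669 genes and of Mir466n.

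A read counts a mature microRNA rather than a position along the hairpin, so CPM was not divided by hairpin length above. Per 100 bases of hairpin the order of the 9 means was the same, from 3141 ± 448 CPM per 100 bases for Mir467d to 12.7 ± 2.99 for Mir669h (SD, n = 2). Near the limit of detection, the 3 members just above it by their lower count were Mir669h with 21, Mir466n with 118 and Mir669e with 159. Just below it were Mir466h with 5, Mir466l with 4 and Mir466p with 3.

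The families kept the same order in both libraries, with unequal shares. These are shares of the counted reads, which leave out reads that match several places. Mir467 genes held 71.4% of the member counts in replicate 1 (95% exact Clopper-Pearson interval 70.9 to 72.0) and 77.8% in replicate 2 (77.1 to 78.4). Mir669 genes held 27.7% (27.2 to 28.2) and 21.3% (20.6 to 21.9). Mir466 genes held 0.859% and 0.906%, and their intervals overlapped. Mir297 genes held 0.0175% and 0.0676%. The Mir467 share was thus higher and the Mir669 share lower in replicate 2, beyond counting error. With 1 library on each side, the spread between pools of livers cannot be separated from this difference.

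**Figure D2:**
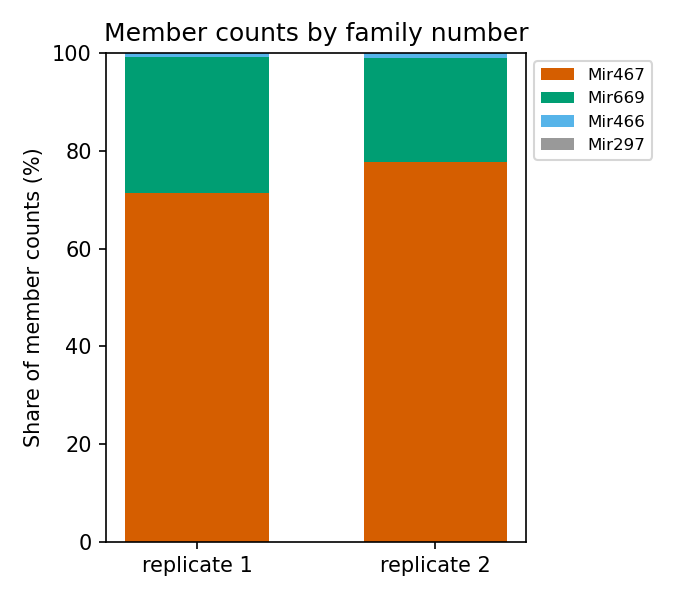
Share of all member counts (%) held by each family number in replicate 1 and replicate 2, as stacked bars that add to 100. The Mir467 genes take 71.4% and 77.8%, the Mir669 genes 27.7% and 21.3%, and the Mir466 and Mir297 genes are barely visible.

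The libraries were then compared gene by gene. The counts of each gene were compared by a two-sided exact binomial test with Benjamini-Hochberg adjustment over the 454 counted genes with at least 10 summed counts, 15 of them members. To be called, a gene needed both an adjusted p below 0.05 and levels that lay 2-fold or more apart. This test knows counting noise only, and it compares these libraries, not conditions. It called 1 of the 15 members, and 33 of the 454 genes (7.27%). The median log2 ratio of replicate 2 over replicate 1 was 0.08 for the 15 members and 0.01 for all 454 genes.

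The called member was Mir297a-2 (ENSMUSG00000076983.2, chromosome 2 at 10472254 to 10472343), a gene with few reads. It had 2 counts in replicate 1 and 8 in replicate 2, or 0.598 and 5.05 CPM. Replicate 2 was higher by a ratio of 8.81, with a counting interval of 1.76 to 85.2 (adjusted p = 0.00527 by the exact binomial test). When edgeR's exact test was given a biological coefficient of variation of 0.2, it called 0 members and 1 of the 454 genes, and requiring 100 summed counts removed the gene from the test.

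Of the 15 tested members, 11 lay within 2-fold between the libraries, among them all 9 detected ones, beside 383 of the 454 genes. Outside 2-fold, besides Mir297a-2, were Mir669f with 12 and 2 counts, Mir466b-3 with 13 and 2 and Mir466o with 9 and 1, each higher in replicate 1 and none past the test (adjusted p = 0.359, 0.267 and 0.289 by the exact binomial test). Without the fold limit, 7 of the 15 members passed at an adjusted p under 0.05, beside 223 of the 454 genes (49.1%). Higher in replicate 2 were Mir466n, with a log2 ratio of 0.54, Mir467c with 0.37, Mir467d with 0.35 and Mir467e with 0.19. Lower in replicate 2 were Mir669c with -0.58 and Mir669o with -0.36. The adjusted p-values of these 6 genes by the exact binomial test ran from 1.06e-38 for Mir467d to 0.00523 for Mir466n. Mir669l, Mir669e and Mir669h, with log2 ratios of 0.08, 0.21 and -0.40, did not pass (adjusted p = 0.140, 0.239 and 0.404).

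Nearly all counts came from inside Sfmbt2. All 59 members inside Sfmbt2 lie on the strand of the host within a single intron, intron 10 or 11 depending on the coding transcript of M21, between 10466663 and 10518279, a stretch of 51.6 kb. They held 99.993% of the member counts in replicate 1 and 100% in replicate 2. The 10 members elsewhere had 2 counts in replicate 1, both at Mir466q on chromosome 3, and 0 in replicate 2. Among microRNA hairpins, theirs were not the least distinct by their share of unique stretches. Their median share of 20-base stretches found in no other GENCODE M21 microRNA hairpin was 70.0%, beside 29.9% for the 59 inside Sfmbt2. Mir669n on chromosome 3, at 100% on this measure, had 0 counts in both libraries. The measure leaves out the rest of the genome, where a read may also match. The number of other M21 microRNA genes sharing a 20-base stretch went the other way, with a median of 23 for the 10 and 18 for the 59. The longest alternation of U with G or of C with A had a median of 13 bases in the 10 members elsewhere and 9 in the 59. Whether reads of the 10 match several places was not tested.

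Within the intron, counts came from both ends of the array and hardly from its middle. Mir669e, Mir669l and Mir467c lie 0.832, 2.31 and 7.27 kb from the start of the first member. The next detected gene is Mir467e at 39.1 kb, followed by Mir467d at 41.0, Mir669c at 42.6, Mir466n at 47.1, Mir669o at 47.6 and Mir669h at 51.5 kb. Between Mir467c and Mir467e lie 26 counted members, a stretch singled out after its values were seen. They had 20 counts in replicate 1 and 6 in replicate 2, and 22 of them had 0 in both.

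This middle stretch is a regular tandem repeat. The starts of the 11 Mir467a and Mir467b copies are spaced at a median of 2455 bases, from 2413 to 4880. The 7 counted Mir466b copies, which interleave with them, had 13 counts in replicate 1, all at Mir466b-3, and 2 in replicate 2. M21 names 12 further genes of these families within the array, such as Mir466b-1 and Mir669a-4, that were not among the counted genes.

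**Figure D3:**
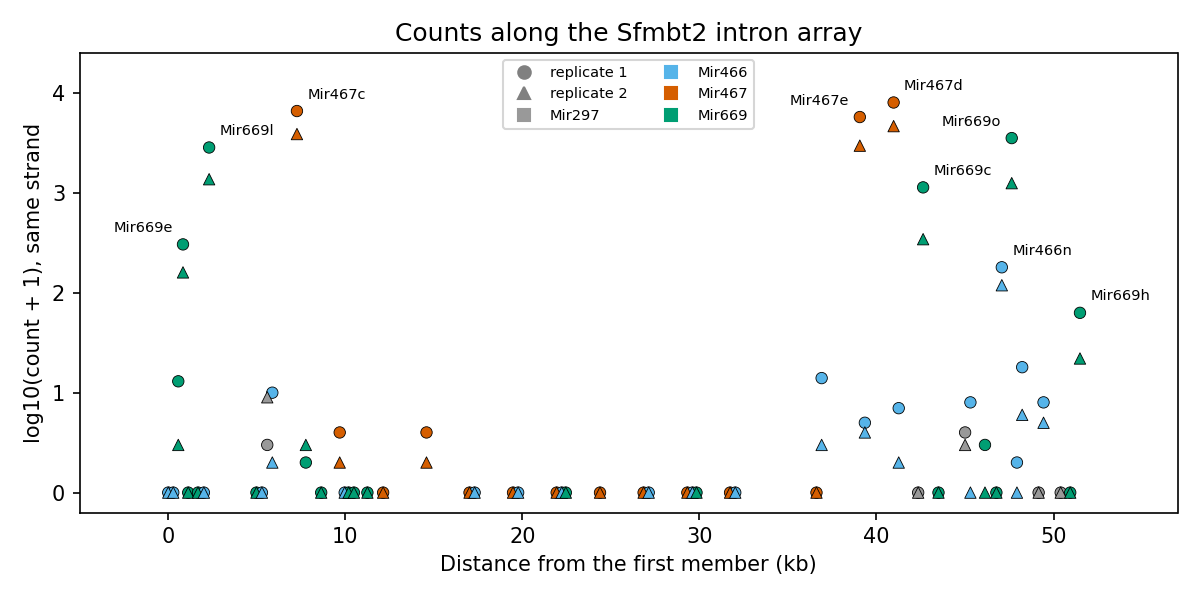
Counts on the strand of the gene, as log10(count + 1), of the 59 members inside Sfmbt2 against distance from the start of the first member (kb), with circles for replicate 1, triangles for replicate 2 and a colour for each family number. Detected genes stand at both ends, up to 7.27 kb and from 39.1 kb on, and the 26 members between Mir467c and Mir467e stay at 13 counts or fewer.

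Several detected genes lie next to hairpins with few or 0 counts. The 9 detected genes have 17 neighbouring positions in the array, and at 15 of these the neighbouring counted member was not detected (88.2%). Of all 59 members in the intron, 50 were not detected (84.7%), so the neighbours were near the share of the array as a whole. Mir467d, with 8028 and 4657 counts, is followed after 203 bases by Mir466, with 6 and 1. Mir467e, with 5740 and 2968 counts, is followed after 198 bases by Mir466p, with 4 and 3. Mir669o, with 3534 and 1250 counts, is followed after 199 bases by Mir466g, with 1 and 0. The single pair of detected neighbours was Mir466n and Mir669o, 465 bases apart.

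Only reads that match 1 place were counted, so a hairpin is counted only through reads whose whole sequence occurs nowhere else. A read may be longer than 20 bases, so the 20-base measure used here does not settle which hairpins can be counted. The members were less distinct than counted genes in general: the median share of 20-base stretches found in no other M21 microRNA hairpin was 32.9% for members and 98.9% for all counted genes. At least 20 consecutive bases were shared with another counted gene by 67 of 69 members, all 9 detected ones included. No stretch was unique in 20 members, and of these 19 had 0 counts in both libraries and 1, Mir467a-1, had 3 and 1. In the middle stretch this held for 19 of 26 members, and for 1 of the other 33 in the intron. Reads that map to several places made up 22.0% and 22.6% of all reads in replicates 1 and 2, which is 98.4 and 83.4 times the member counts. How many of them belong to members cannot be told from the counts, so the level of the multi-copy genes is unknown rather than low.

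Among the 13 members of the intron with at least 50% unique stretches, a limit set after the values were seen, 8 were detected. The other 5 were Mir466h, Mir466l, Mir466g, Mir669b and Mir669i. Mir669b, at 87.2%, and Mir669i, at 73.1%, had 0 counts in both libraries, and Mir466g, at 100%, had 1 and 0. The share covers the whole hairpin, while a read counts a mature microRNA. Mir669b and Mir669i still shared a 20-base stretch with 13 and 47 other M21 microRNA genes, and Mir466g with 0. Whether the mature sequences of these genes match a single place in the genome was not tested. Mir467d, by contrast, had the most counts of any member at 37.9% unique stretches. Across the 59 members in the intron, Spearman's rho of this share with mean CPM was 0.657, and across all 69 members it was 0.431. A positive rho is partly built in by the counting rule, since 20 of the 59 have no unique stretch and shared reads were not counted. Of the 8 members outside Sfmbt2 with at least 50% unique stretches, 0 were detected. The points share libraries, host gene and sequence, so this is a description.

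**Figure D4:**
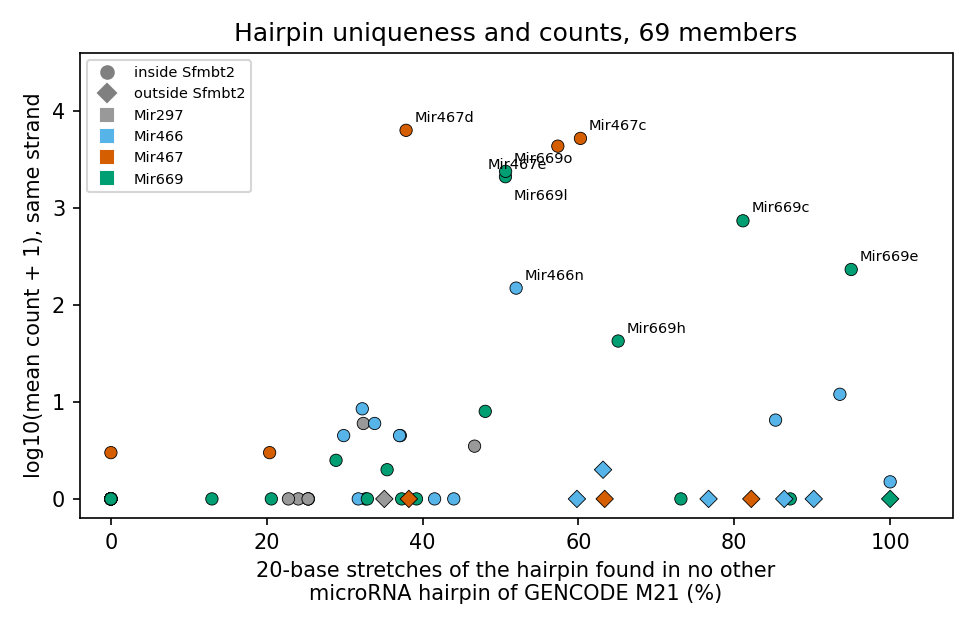
Mean count on the strand of the gene, as log10(mean count + 1), against the share of 20-base stretches of the hairpin found in no other GENCODE M21 microRNA hairpin (%), for all 69 members, with circles inside and diamonds outside Sfmbt2. Mir467d is the one detected member under 50%, and the 10 members outside Sfmbt2 stay at 2 counts or fewer whatever their share.

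Other genes set these levels in context. Inside Sfmbt2, 48 further counted microRNA genes carry only provisional Gm names. Of these 0 were detected, 42 had 0 counts in both libraries and the highest count was 10. Their median share of unique stretches was 11.1%. The imprinted Mir379 to Mir410 cluster on chromosome 12, also a large tandem array, held 11.8 ± 1.48% of the assigned counts (SD, n = 2), with 31 of 38 genes detected and a median of 100% unique stretches. The Mir290 to Mir295 genes of early embryos, of which 6 were counted, held 0.0503 ± 0.00344%, with 4 detected. No test was made between these groups, which differ in how distinct their hairpins are.

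The tissue label was checked against microRNAs known from cell types. The 5 listed hepatocyte genes, Mir122 among them, together held 3.48% and 3.81% of the assigned counts in replicates 1 and 2, with 4 detected. The sum does not show the level of any single gene. The endothelial Mir126a held 5.74% and 8.01%, erythroid genes 0.833% and 1.13%, and mesenchymal and smooth muscle genes 2.20% and 3.29%. Leukocyte genes held 0.534% and 0.531%, with 3 of 4 counted genes detected. Striated muscle genes held 0.0714% and 0.0626%, with 3 of 6 counted genes detected. Neural genes, 5 of 9 listed being counted, held 0.000329% and 0%, with 0 detected. The listed neural genes, several striated muscle genes and some hepatocyte and mesenchymal genes are numbered copies. Reads shared between copies were not counted. The low neural and striated muscle shares therefore cannot check the tissue label. In a whole organ, fewer cells that express a gene and less of its RNA per cell cannot be told apart. These libraries do not show which liver cells held the Mir467 and Mir669 reads.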

How the data were processed

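The deposited files hold raw counts, whole numbers of reads for each microRNA gene with no normalisation. Per the deposited file descriptions, alignment was to mm10 and annotation was GENCODE M4. No source used here gives the aligner, the counter or any trimming. The count column on the strand of the gene was used. Its meaning was read from the layout and values. The 4 summary classes, which name no gene (73.8% and 71.0% of reads in replicates 1 and 2), stayed out of library sizes.

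CPM, shares and Clopper-Pearson intervals were computed from these counts. Symbols, coordinates and hairpins came from GENCODE M21 (same assembly), matched by Ensembl identifier for 1894 of 1973 genes. Hairpins were compared on both strands, and pairs were aligned globally with Biopython 1.88. The exact binomial test used TMM effective library sizes (edgeR 4.0.16, R 4.3.3), with 0.5 added to each count for log2 ratios, and was tested on simulated data. DESeq2 1.42.0 supplied alternative size factors. Python 3.11.15, scipy 1.17.1, numpy 2.4.6 and pandas 2.3.3 did the rest.

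Named genes were the detected members, those called between the libraries and the 3 nearest to the detection limit on each side. Others were named after their values were seen. A planned count of genomic loci per mature sequence was not run. Members and lists were chosen with earlier results of these data known. P-values measure only the spread from counting between these libraries.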

Additional observations from a re-analysis of the deposited data

How the results depend on the processing

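No paired analysis was possible because both libraries belong to the same group. Requiring 1 count in place of 10 in both libraries gave 21 detected members in place of 9, and leaving out each replicate in turn gave 9 to 12. The members' share of counts was 0.893%. It was 0.811% without regard to strand, where opposite-strand reads of other genes join the total, 0.247% of all reads, and 0.852 to 0.934% with a replicate left out. Leaving out the 67 members whose hairpins have 20 or more bases in common with another counted gene left 1.49e-05%. All 9 detected members were among those left out, and the share inside Sfmbt2 could then not be computed for replicate 2. That share was otherwise 99.993 to 100% with a replicate left out. The number of members called between the libraries was 1, of 33 genes called in all. It was 0 of 16 with at least 100 summed counts, where 8 members were tested, and 0 of 1 with edgeR's exact test at an assumed coefficient of variation of 0.2. It was 1 of 34 with total counts, 1 of 33 with DESeq2 size factors and 1 of 27 with no filter. Depth limits what can be said of the 51 members with 3 counts or fewer in both libraries. So does the loss of reads that match several places, since 20 of these members had no unique 20-base stretch.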
